A study of Quercus ilex with 12 samples.

Results

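The 100 contigs described here were those that stood highest, by the widest gap, in leaves of watered holm oak (*Quercus ilex*) seedlings at the second of 2 samplings, and they were taken from 47568 assembled contigs. A contig is a stretch of transcript put together from overlapping reads, and its level was read as TPM, an estimate of transcript abundance scaled for contig length and for the size of the library. The rule asked for a mean of at least 2 TPM over the 12 libraries, which 23684 contigs met. It then asked that the lowest of the 3 watered libraries of the second sampling lie above the highest of the other 9, and 593 contigs (2.5%) did so. A last clause removed the 28 of these in which all 6 drought libraries lay below all 6 watered ones, so that 565 remained. They were ranked by the lowest watered TPM of the second sampling over the highest TPM of the other 9 libraries, with 0.1 added to both, and the first 100 were taken. The TPM values of all 12 libraries therefore chose the members, and the height of the watered leaves of the second sampling is given below as a description, with no test.

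The study compared leaf RNA of seedlings 6 months old, with 3 biological replicates in each of 4 groups, all of one tissue and with no transgene or chemical agent in the labels. These were drought (irrigation withdrawn) at the second sampling, control (well watered) at the second sampling, drought at the first sampling, and control at the first sampling. By the labels of the samples the dates were 20 and 25 days, by the series text 17 and 24 days of drought, and neither says whether a replicate was a single seedling or a pool. The series title names drought tolerance as the question.

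Holm oak is an evergreen Mediterranean tree with tough, long-lived leaves. In watered seedlings the leaves keep developing, while seedlings left without water close their stomata, fix less carbon and slow their growth. The files pair no contig with a gene name or a sequence, so no function can be given for any member, and only 4 identifiers are printed. The other members are called by their place in the ranking.

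Libraries held 11239487 to 33384307 estimated reads, the shallowest being the watered library 3 of the second sampling. For 6 libraries the nearest neighbour lay outside their own group, in 3 of them by more than 0.05 (Pearson's r of log2(TPM + 0.1) across contigs with a mean of at least 2 TPM, which are not independent replicates). Drought library 3 of the second sampling had at best 0.770 within its group and 0.848 with watered library 1 of the first. Watered library 2 of the second sampling had 0.794 within its group and 0.852 with watered library 2 of the first, which in turn had 0.748 within its own. Watered library 2 of the second sampling set the place of most members, as given below. Pairs of replicates differed by at least 63.0 times the sampling noise (chi-square per degree of freedom of their counts), so none was counted as a duplicate.

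The leading member, contig-182000012, was 1870 bases long and nearly confined to the watered leaves of the second sampling. It had 0.06, 0.00 and 0.17 TPM in the 3 drought libraries of the second sampling, against 30.64, 32.46 and 30.77 TPM in the 3 watered ones. At the first sampling it had 0.00, 0.08 and 0.00 TPM under drought, against 0.00, 0.02 and 0.10 TPM in watered leaves. The watered leaves of the second sampling thus averaged 31.3 ± 1.02 TPM (SD, n = 3), and its lowest library stood 114 times above the highest of the other 9 on the scale with 0.1 added. These levels rest on 1708, 1520 and 688 estimated reads in the 3 watered libraries of the second sampling, against 0 to 7 in each of the other 9. No other member came near this ratio: the next had 7.46 and the one after it 5.18.

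The member in second place, contig-1922000004, was 956 bases long and was present in every library. It had 6.03, 1.30 and 2.93 TPM in the drought libraries of the second sampling, against 57.48, 48.77 and 62.04 TPM in the watered ones. The first sampling gave 0.88, 6.42 and 0.57 TPM under drought, against 2.16, 6.45 and 2.59 TPM in watered leaves. Its group means were 3.42 ± 2.40 TPM under drought and 56.1 ± 6.74 TPM in watered leaves at the second sampling, and 2.62 ± 3.29 TPM under drought and 3.73 ± 2.36 TPM in watered leaves at the first (SD, n = 3 each). Outside the watered leaves of the second sampling, the libraries of this contig overlapped among all 3 groups. Both leading members were even across the 3 watered libraries of the second sampling, where the highest was 1.06 times the lowest for contig-182000012 and 1.27 times for contig-1922000004.

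**Figure D1:**
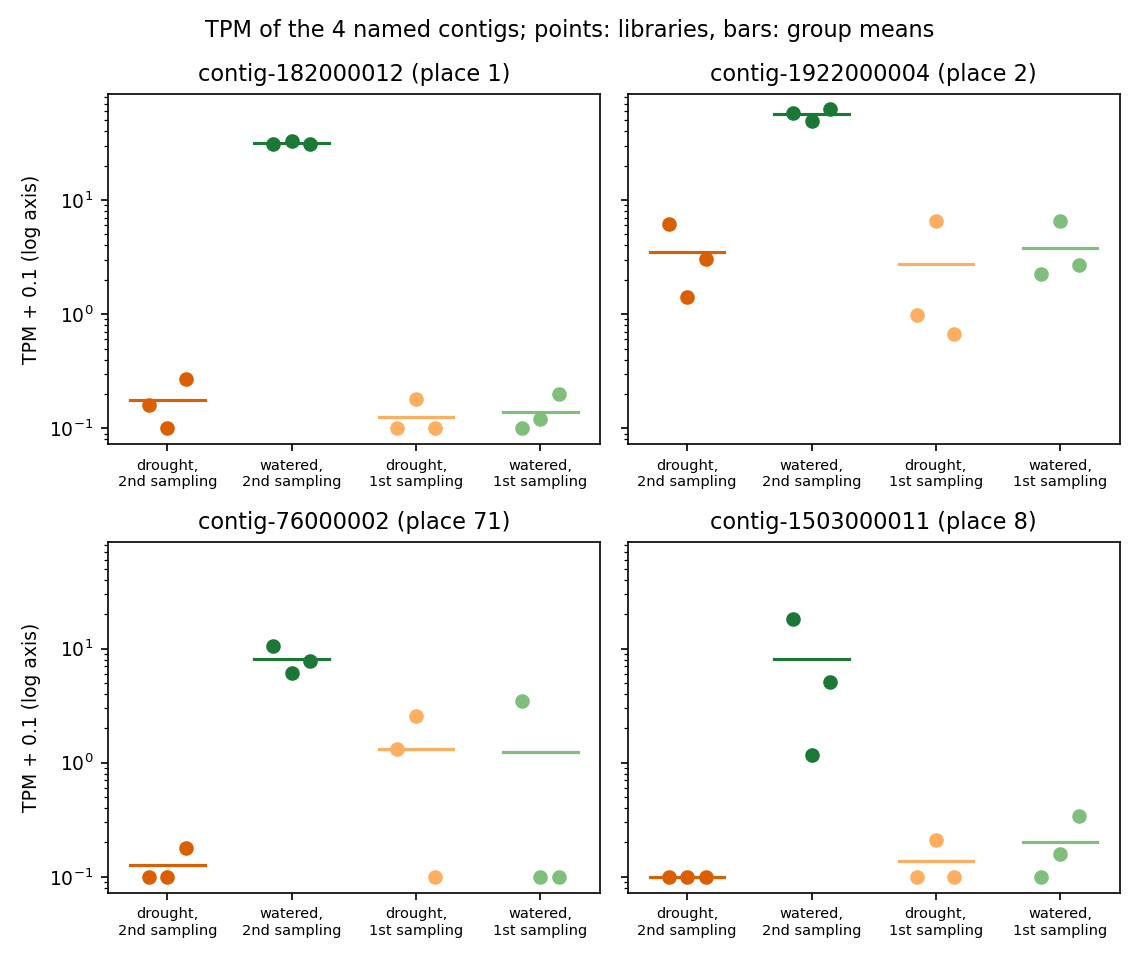
TPM of the 4 named contigs, with 0.1 added, on a log axis, for each library (points) and as group means (bars), with 3 libraries in each of the 4 groups. The watered leaves of the second sampling lie highest by the rule in all 4 panels, at 30.64 to 32.46 TPM for contig-182000012 and at 48.77 to 62.04 TPM for contig-1922000004.

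Most members were far less even than these. The highest of the 3 watered libraries of the second sampling was a median 4.14 times the lowest, against 2.40 times over the 23684 contigs with a mean of at least 2 TPM. The ratio was under 2 in 23 members, from 2 to under 5 in 37, from 5 to under 10 in 25 and 10 or more in 15. In all 15 of the last class, watered library 1 was the highest. The widest was the member in place 30, which had 158.37, 1.14 and 9.09 TPM in the 3 watered libraries of the second sampling, against 0.00 to 0.49 TPM in the other 9. The mean of such a member is carried mainly by a single library.

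The order of the 3 watered libraries repeated itself from member to member. Library 1 was above library 3 and library 3 above library 2 in 68 of the 100 members, against 17.2% of contigs with a mean of at least 2 TPM. Library 1 was the highest of the 3 in 71 members, library 3 in 22 and library 2 in 7. Library 2 was the lowest in 87 members, library 1 in 8 and library 3 in 5, while over all contigs at that level library 2 was the lowest in 32.2%. The median member stood 8.04, 1.93 and 5.46 times above the highest of the other 9 libraries in watered libraries 1, 2 and 3. The place of most members was therefore set by library 2, which was nearer to a library of the first sampling than to its own group. Without it, 2398 contigs met the rule in place of 565. Of the 100 members, 45 were then among the first 100. Without watered library 1 of the second sampling 81 were among them, without watered library 3 there were 82, and without any single one of the other 9 libraries 66 to 97. The order of the libraries within a member cannot be undone by leaving one out, but the mean or the clause on drought can then fail. Without watered libraries 1, 2 and 3 of the second sampling, 85, 97 and 93 of the 100 members still met the rule. Without any single one of the other 9 libraries 96 to 100 did. The counts among the first 100 thus describe the ranking and these conditions together.

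**Figure D2:**
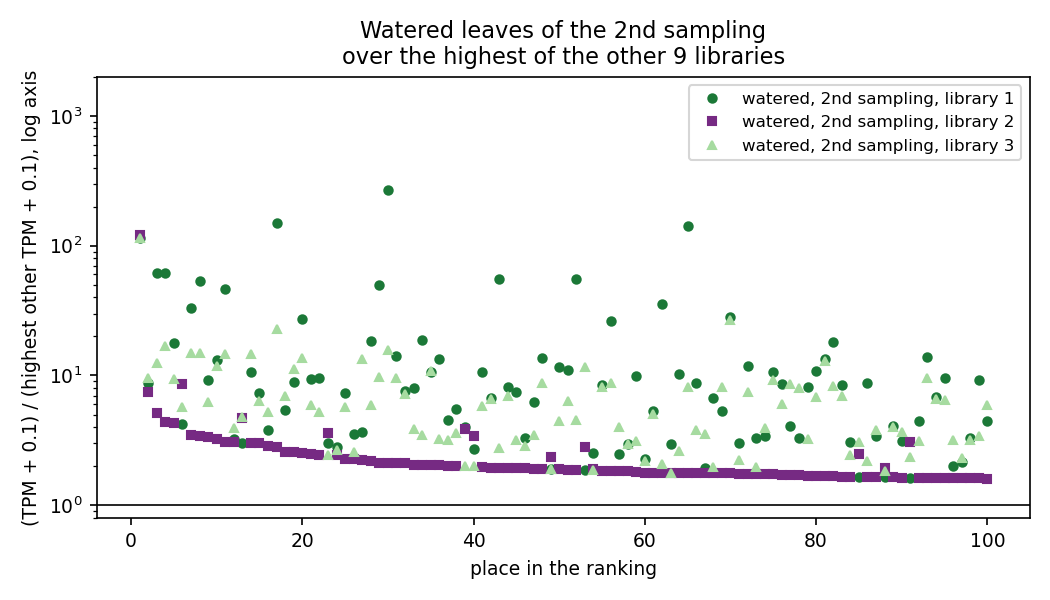
TPM of each member in the 3 watered libraries of the second sampling over its highest TPM in the other 9 libraries, with 0.1 added to both, on a log axis, against its place in the ranking. Library 2 (squares) forms the lower edge in 87 of 100 members, at a median of 1.93, below library 1 at 8.04 and library 3 at 5.46.

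Added up, the members took a larger share of leaf RNA in the watered leaves of the second sampling than in any other group. Their summed level was 3249, 1888 and 2029 TPM in the drought libraries of the second sampling, against 39484, 8228 and 27641 TPM in the watered ones. At the first sampling it was 2619, 1402 and 638 TPM under drought, against 1482, 2011 and 2882 TPM in watered leaves. By estimated reads the share was 2.99%, 0.600% and 2.09% of the 3 watered libraries of the second sampling, and 0.0474% to 0.242% of the other 9. The member in place 75, the most abundant, made up 18.2% of the sum in watered library 1. Without the 10 most abundant members the sums were 994 to 1555 TPM under drought and 4133 to 15797 TPM in watered leaves at the second sampling, and 363 to 1164 TPM under drought and 748 to 1454 TPM in watered leaves at the first. In leaf RNA of this kind, fewer cells of a type that holds a transcript and less of it in each cell cannot be told apart.

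**Figure D3:**
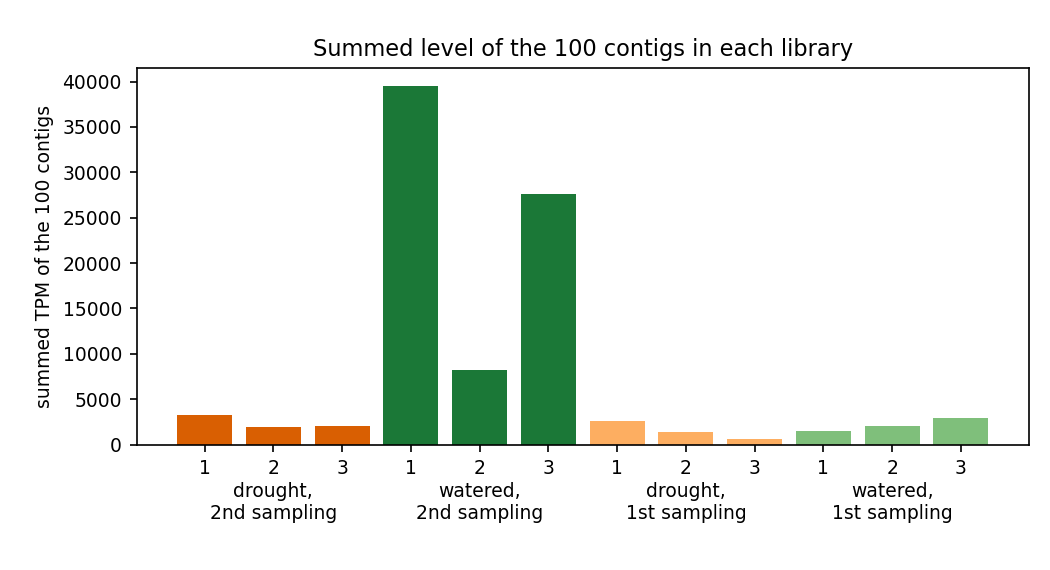
Summed TPM of the 100 members in each library, from 0, for drought and watered leaves of the second and the first sampling. The 3 watered libraries of the second sampling stand at 39484, 8228 and 27641 TPM and the other 9 at 638 to 3249 TPM.

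The members covered a wide span of levels. Their mean in the watered leaves of the second sampling ran from 6.43 to 4888 TPM, with 15 members under 10 TPM, 44 from 10 to under 100 TPM and 41 at 100 TPM or more. Over the members, the median of the group mean was 5.28 TPM under drought and 60.05 TPM in watered leaves at the second sampling, and 3.78 TPM under drought and 5.64 TPM in watered leaves at the first. In the other 9 libraries 8 members stayed under 1 TPM throughout, those in places 1, 3, 5, 8, 11, 30, 52 and 65. Another 39 reached 1 to under 10 TPM at their highest, 41 reached 10 to under 100 TPM and 12 reached 100 TPM or more. Most members were therefore not absent elsewhere, and 79 had a TPM above 0 in all of the other 9 libraries. The remaining 21 of 100 were at 0 TPM in at least 1 of these. That held for 1087 of the 23684 contigs with a mean of at least 2 TPM, a smaller share.

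The abundant end is shown by the member in place 75, which was 921 bases long. It had 678.11, 245.89 and 273.66 TPM in the drought libraries of the second sampling, against 7199.82, 1176.38 and 6287.99 TPM in the watered ones. Its levels at the first sampling were 282.83, 96.99 and 57.37 TPM under drought, against 139.27, 154.80 and 226.60 TPM in watered leaves. By the rule, the watered leaves of the second sampling did not overlap with any other group, and drought library 1 of the same date came next.

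**Figure D4:**
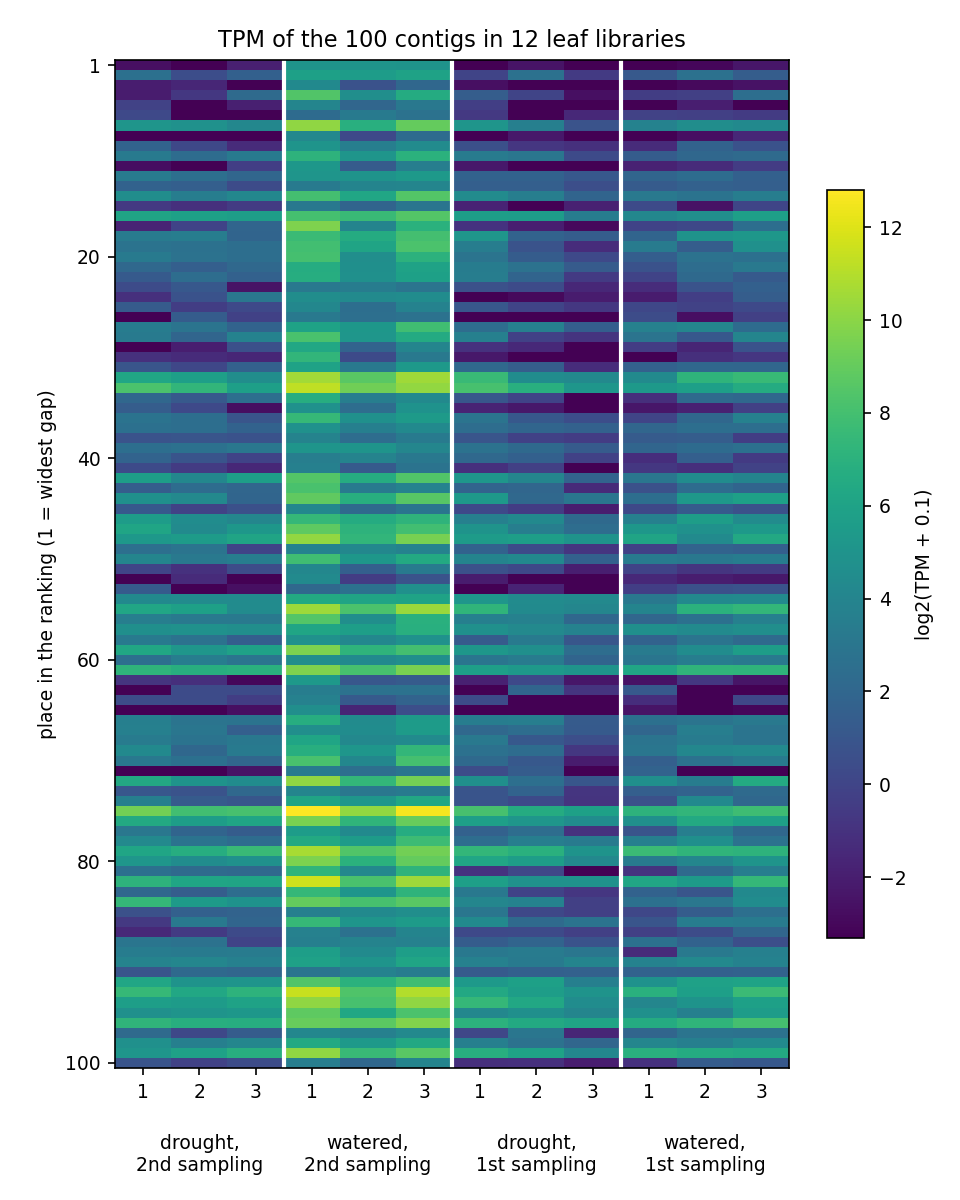
log2(TPM + 0.1) of the 100 members (rows, by place in the ranking) in the 12 libraries (columns, 3 for each of the 4 groups). The watered leaves of the second sampling form the bright block, library 2 is its dimmest column, and drought library 3 of the first sampling is the darkest column, with a median of 1.10 TPM.

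In the fit of the estimated counts over all contigs, the sizes of the differences that the rule used were as follows, again with no test. Of the 100 members 99 passed the filter on low counts, the exception being place 65, and 90 would have passed it in the other 9 libraries alone, and the other 9 passed only through the watered leaves of the second sampling. Over these 99, the log2 fold change of drought over control at the second sampling had a median of -3.82 and was -1.67 or lower in each. That of the second over the first sampling in watered leaves had a median of 3.72 (from 1.69 to 9.75). Over all 33602 contigs tested the medians were 0.04 for drought over control at the second sampling and -0.12 for the second over the first sampling in watered leaves. With the members held as chosen and any single library left out, the median ran from -4.25 to -3.21 for drought over control. For the second over the first sampling it ran from 3.27 to 4.17. The rule set the direction of both, so these ranges are a description and no sign of stability.

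The same order was met less often by the other groups. The lowest library of the group lay above the other 9 in 137 contigs for drought at the second sampling (0.578% of those with a mean of at least 2 TPM), in 593 for the watered leaves of the second sampling (2.5%), in 428 for drought at the first (1.81%) and in 337 for the watered leaves of the first (1.42%). The mirror image, all 3 libraries below the other 9, was more frequent for the watered leaves of the second sampling, with 1830 contigs (7.73%), beside 74 for drought at the second sampling (0.312%), 655 for drought at the first (2.77%) and 34 for the watered leaves of the first (0.144%). These counts share libraries with each other and were not tested. They also depend on the scaling. Contigs with a mean of at least 2 TPM had a median of 8.42, 11.22 and 9.535 TPM in watered libraries 1, 2 and 3 of the second sampling. In the other 9 libraries that median was 10.82 to 13.57 TPM. With library sizes scaled by TMM in place of TPM, 911 contigs met the rule, the 100 members among them. The mirror image was counted on the TPM scale only, so how far scaling enters the 1830 was not tested.

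The second against the first sampling in droughted leaves was the comparison whose size and direction the rule did not ask for, although the levels of these 6 libraries entered it. It asks whether the members changed with time in the seedlings kept without water. Most members had a positive log2 fold change, but with edgeR none passed the test. Among the 90 members that passed the filter on low counts without the watered leaves of the second sampling, the log2 fold change of the second over the first sampling was positive in 71 (49.5% of all contigs tested were, and 50.5% were negative), above 1 in 32 (10.8%) and under -1 in 2 (12.5%). Their median was 0.55, against -0.01 over all 33602 contigs. With the 9 that passed only through those leaves, 78 of 99 were positive and the median was 0.56. It was 0.57 with the member whose libraries were all at 0 at the first sampling set at its bound of 3 counts over the group, and without contig-1503000011, which had 3 counts or fewer in both groups. Members also differed more between droughted replicates than other contigs. Their median SD of log2(TPM + 0.1) was 1.22 at the first sampling, against 0.39 over contigs with a mean of at least 2 TPM. At the second sampling it was 0.74, against 0.49. Wide fold changes in either direction are therefore less telling here. Leaving out drought library 3 of the first sampling lowered the median log2 fold change over the members tested to 0.30, and leaving out drought library 1 of the first sampling raised it to 1.28. Both medians include members that passed the filter only through the watered leaves of the second sampling.

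By the order of the libraries, the 3 drought libraries of the second sampling lay above all 3 of the first in 12 members (8.16% of contigs with a mean of at least 2 TPM) and below them in 0 (5.98%). The share above is near that of all contigs. In the remaining 88 members the droughted groups overlapped. The test is read over the 90 members that passed the filter on low counts without the watered leaves of the second sampling. With edgeR's quasi-likelihood test 0 of these 90 passed an adjusted p under 0.05 in either direction, where 1 of all contigs did (lower, 0.00298%, and 0% higher). The lowest adjusted p of a member was 0.71. At an unadjusted p under 0.05 there were 10 members higher (3.46% of all contigs) and 0 lower (2.84%), all 10 among the 90. DESeq2 called 2 members higher (0.448% of the contigs it tested), both among the 90, and 0 lower (0.548%). Limma-trend on log2(TPM + 1) called 0 in either direction (0.00595% higher and 0.0149% lower).

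**Figure D5:**
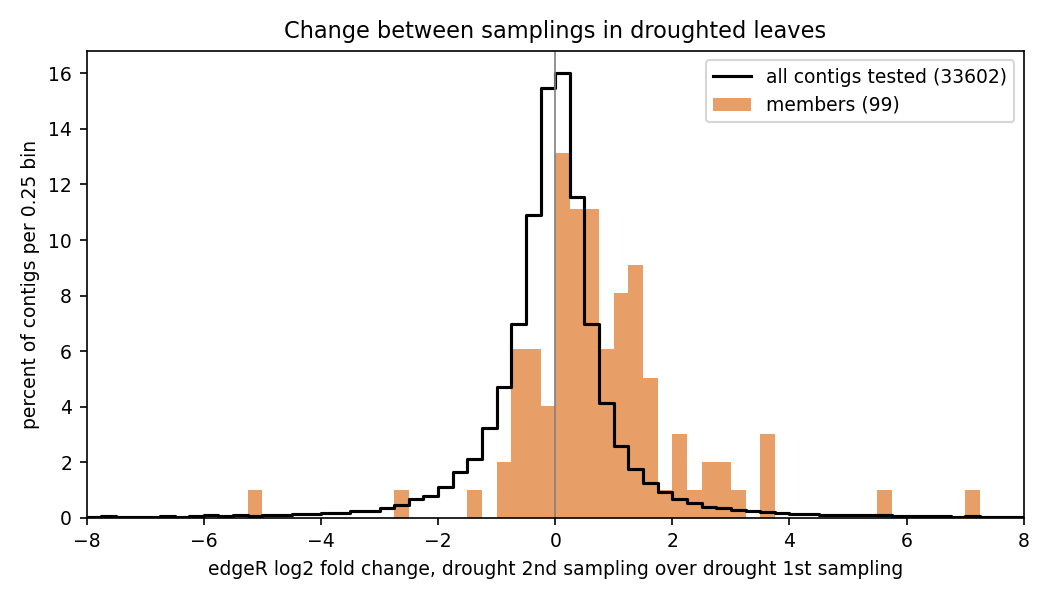
Percent of contigs in each 0.25 wide bin of the edgeR log2 fold change of drought at the second over drought at the first sampling, for the 99 members tested (bars) and all 33602 contigs tested (line). The members are shifted to the right, with a median of 0.56 against -0.01. Over the 90 members that passed the filter on low counts without the watered leaves of the second sampling, the median was 0.55.

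Both members called by DESeq2 were low or absent in the droughted leaves of the first sampling, and they are given by place because they were picked after their values were seen. The member in place 24, 1724 bases long, had 0.37, 1.58 and 8.45 TPM in the drought libraries of the second sampling, against 0.00, 0.03 and 0.13 TPM in those of the first. Its log2 fold change was 5.70 (SE 1.45), with an adjusted p of 0.71 by edgeR and 0.0011 by DESeq2. The 3 libraries of the second sampling were all above those of the first but spread over a wide range, with drought library 3, a library nearer to another group, the highest. In watered leaves this member had 23.74, 20.58 and 22.63 TPM at the second sampling, against 0.13, 0.69 and 2.60 TPM at the first.

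The other, in place 26 and 713 bases long, had 0.00, 2.53 and 0.78 TPM in the drought libraries of the second sampling, against 0.00 TPM in all 3 of the first. The groups overlapped at 0, and the adjusted p was 0.74 by edgeR and 0.027 by DESeq2. A firmer gap at a high level was seen for the member in place 61, 1780 bases long. It had 143.27, 112.49 and 123.67 TPM in the drought libraries of the second sampling, against 56.17, 40.06 and 32.03 TPM in those of the first. Its log2 fold change of 1.57 (SE 0.49) missed the threshold all the same (edgeR adjusted p = 0.75).

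Of the 10 members with an unadjusted p under 0.05, 2 more of different evenness may be set side by side. The member in place 84, 900 bases long, had 170.50, 44.59 and 29.22 TPM in the drought libraries of the second sampling, against 16.76, 14.29 and 0.72 TPM in those of the first. Its watered leaves had 519.97, 282.26 and 413.16 TPM at the second sampling, against 6.03, 8.18 and 22.51 TPM at the first. The droughted groups did not overlap, and drought at the second sampling also lay above the watered leaves of the first (log2 fold change of the second over the first sampling in droughted leaves 3.02, SE 1.02, edgeR adjusted p = 0.77).

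A contig of 803 bases in place 12 was more even within each group. It had 10.21, 5.86 and 3.83 TPM in the drought libraries of the second sampling, against 3.21, 3.24 and 2.12 TPM in those of the first. Its watered leaves had 33.57, 31.32 and 40.69 TPM at the second sampling, against 3.71, 5.04 and 2.94 TPM at the first. The droughted groups did not overlap, by a narrow margin (log2 fold change 1.22, SE 0.41, edgeR adjusted p = 0.77).

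For contig-182000012 the droughted leaves gave hardly any reads at either date, 9 over the 3 libraries of the second sampling against 3 over those of the first, a ratio of 3.70 after scaling to library size, with an exact 95% interval from counting alone of 0.923 to 21.2. This contig passed the filter only through the watered leaves of the second sampling, so no test of it is given. For contig-1922000004 the log2 fold change of the second over the first sampling in droughted leaves was 0.50 (SE 0.81, edgeR adjusted p = 0.96), and without drought library 1 of the second sampling it was -0.24. The droughted groups of this second contig overlapped, and the difference was smaller than the spread of the libraries.

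The 2 members with the lowest fitted change in droughted leaves were chosen by rule. The member contig-76000002, in place 71 and 1147 bases long, had 0.00, 0.00 and 0.08 TPM in the drought libraries of the second sampling, against 10.49, 5.97 and 7.67 TPM in the watered ones. At the first sampling it had 1.22, 2.44 and 0.00 TPM under drought, against 3.39, 0.00 and 0.00 TPM in watered leaves. It was thus detected in 3 of the 6 libraries of the first date, in both treatments. In droughted leaves 2 reads of the second sampling stood against 84 of the first, a ratio of 0.0293 after scaling with an exact 95% interval from counting alone of 0.0035 to 0.109, and the groups overlapped at 0 (edgeR adjusted p = 0.77).

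The member contig-1503000011, in place 8 and 947 bases long, was at 0.00 TPM in all 3 drought libraries of the second sampling, against 18.16, 1.07 and 4.97 TPM in the watered ones. The libraries of the first sampling had 0.00, 0.11 and 0.00 TPM under drought, against 0.00, 0.06 and 0.24 TPM in watered leaves. With 0 reads at the second and 2 at the first sampling in droughted leaves, no fold change is given. Its height in the watered leaves rests on library 1, with 473 reads against 23 and 52 in libraries 2 and 3.

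The remaining contrast, drought against control at the first sampling, was touched by the clause of the rule and is given with no test. The log2 fold change of drought over control had a median of -0.54 over the 90 members that passed the filter without the watered leaves of the second sampling, with 21 above 0, and of -0.58 over the 99, against -0.04 over all contigs. All 3 drought libraries lay above the watered ones in 0 members (9.91% of contigs with a mean of at least 2 TPM) and below them in 8 (16.5%). The median over the 99 ran from -1.09 without drought library 1 to -0.16 without watered library 3 of that sampling. The droughted leaves of the second sampling lay above the watered leaves of the first in 3 members (6.13%) and below them in 0 (7.85%).

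Drought library 3 of the first sampling was the low point of the series for these contigs. It was the lowest of the other 9 libraries in 60 members, against 15.2% of contigs with a mean of at least 2 TPM, and 17 members were at 0.00 TPM there. The members had a median of 5.38, 3.63 and 1.10 TPM in drought libraries 1, 2 and 3 of the first sampling. This library was the deepest of the 12, with 33384307 estimated reads. The highest of the other 9 libraries was more scattered: drought library 1 of the second sampling in 28 members, watered library 3 of the first in 24, watered library 2 of the first in 13, drought library 1 of the first in 12, and 5 to 7 members in each of 4 further libraries.

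The members also varied together among the 9 libraries in which they were low. Their mean pairwise correlation of log2(TPM + 0.1) there was 0.34, against 0.27 over the other 465 contigs that met the rule and 0.01 over contigs with a mean of at least 2 TPM. It was 0.33, against 0.20 over the other 465, when each library was taken as its deviation from its group mean. Without drought library 3 of the first sampling, the mean pairwise correlation of log2(TPM + 0.1) was 0.12 over the remaining libraries. The 9 points of each correlation share libraries and depth, so the values are a description. Of the 4950 pairs of members, 59 had an r above 0.9 and 841 an r below 0.

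A few members had almost the same profile. Those in places 18, 32 and 55 had an r of 0.985 to 0.993 with each other over the 9 libraries. The member in place 32, 422 bases long, had 73.25, 54.57 and 24.19 TPM in the drought libraries of the second sampling, against 1523.15, 418.94 and 1443.89 TPM in the watered ones. The first sampling gave 199.55, 23.28 and 19.10 TPM under drought, against 21.27, 143.30 and 186.87 TPM in watered leaves. The member in place 55, 1135 bases long, ran beside it, the TPM of place 32 being 0.939 to 1.38 times that of place 55 over the 12 libraries. The members in places 79 and 99 were likewise parallel (r = 0.987, ratio of 1.51 to 2.09 over the 12 libraries). Whether such contigs are pieces or alleles of a single gene cannot be read without their sequences.

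The members were somewhat shorter than other contigs. Their length had a median of 927 bases and a range of 217 to 3406 bases, against a median of 1176 bases over contigs with a mean of at least 2 TPM, and 23% were 500 bases or shorter, against 12.7%. Estimated counts were whole in all 12 libraries for 3 members (3%), against 1.95% of those contigs (within 0.005 of a whole number). RSEM splits reads that fit several contigs, which can give counts that are not whole. How many reads a member shared with other contigs was not examined. The edges of the rule were not sharp. The members in places 98 to 100 had ratios of 1.61, 1.61 and 1.60, and the contigs just outside had 1.59 each. At the limit of 2 TPM, the lowest members had means of 2.01 and 2.05 TPM, and the nearest contigs under it with a wide enough ratio had 1.96 and 1.89 TPM.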

How the data were processed

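RNA-seq of 12 leaf libraries (3 biological replicates in each of 4 groups, from the sample titles) was used. The submitters' processing notes name cutadapt 1.9 and RSEM, and no source used here gives the assembler or aligner. The authors deposited estimated counts, not normalized, with TPM and FPKM values that they scaled for contig length and depth. Depth was 11239487 to 33384307 estimated counts, and intervals cover counting error only.

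Members were found from the deposited TPM (pandas 2.3.3). Estimated counts were rounded and fitted with edgeR 4.0.16 (R 4.3.3): TMM, the default filter by group, a quasi-likelihood fit of 4 groups over 12 libraries, Benjamini-Hochberg adjustment over 33602 contigs at 0.05, two-sided. The standard error was the log2 fold change divided by the root of F. The fit was tested on simulated data. Alternatives were DESeq2 1.42.0, limma-trend 3.58.1, other factors and filters, 6 libraries, a replicate block and leaving out libraries, and FPKM for the rule.

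The members and tests were chosen with earlier results of these data known. Named contigs were the first 2 in the ranking and the 2 others with the lowest log2 fold change in droughted leaves. Replicate numbers were not treated as pairs in the main fit: of 18 correlations between deviations of same-numbered libraries (-0.10 to 0.19), 4 were above 0.1. For 6 of the 12 libraries the best partner nevertheless had the same number, and the replicate block above was fitted as an alternative.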

Additional observations from a re-analysis of the deposited data

How the results depend on the processing

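The count of contigs meeting the rule, 565, was 911 with TMM-scaled counts and 122 with a gap of at least 1.5 times, and ran from 552 to 2398 over the libraries left out in turn, the highest without watered library 2 of the second sampling. All 100 members still had the watered leaves of the second sampling above the other 9 libraries with FPKM and with TMM-scaled counts, and 94 were shared with a ranking that added 1. Ranked by the middle watered library, an alternative chosen after seeing the data, only 51 were shared. In droughted leaves, second against first sampling, edgeR called 1 contig. DESeq2 called 329, limma-trend 7 on log2(TPM + 1) and 8 on log2(TPM + 0.1), and edgeR 0 with at least 10 counts in every library, 0 in a fit of the 6 droughted libraries and 0 with the replicate block. Leaving out single libraries gave 0 to 8, and leaving out the 3 libraries that stood apart, also chosen after seeing the data, gave 14. Members called were 0 in all of these, the block included, except DESeq2 with 2. The log2 fold change of contig-1922000004 turned to -0.24 without drought library 1 of the second sampling, and over all libraries left out in turn ran from there to 2.19, the highest without drought library 2 of the first. The members' median in droughted leaves stayed above 0, from 0.30 to 1.28. The cause of these shifts was not tested. The spread between replicates in the edgeR fit (common biological coefficient of variation) was 0.685.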

Other observations

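The 465 contigs that met the rule below place 100 had narrower gaps, with a ratio of at most 1.59 (median 1.11). Over them the median of the group mean was 17.8 TPM under drought and 44.5 TPM in watered leaves at the second sampling, and 13.6 TPM under drought and 18.7 TPM in watered leaves at the first. Watered library 2 was the lowest of its group in 386 of them, the mean of the droughted leaves was higher at the second than at the first sampling in 360 (77.4%, against 78% of the members and 54.5% of contigs with a mean of at least 2 TPM), and drought library 3 of the first sampling was the lowest of the other 9 in 228, against 60 of the 100 members. The highest watered library of the second sampling was a median 2.05 times the lowest, against 4.14 times for the members, and 10.97% were 500 bases or shorter, against 23%. These shares were not tested.

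The 28 contigs that the clause removed, in which drought lay below control at both samplings, had ratios of at most 2.32, and 2 of them would have stood among the first 100. Their median group means were 10.7 TPM under drought and 76.9 TPM in watered leaves at the second sampling, and 10.6 TPM under drought and 21.5 TPM in watered leaves at the first. Watered library 2 of the second sampling was again the lowest of its group in 23 of the 28.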
